A study of Mus musculus with 20 samples.

Results

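Malat1, Neat1, Miat and Snhg11 are 4 long RNA genes whose transcripts have been described as nuclear. They are described here in cells of mouse dorsal root ganglia (DRG) that were sorted for a Trpv1 reporter. Glial markers were also read in these libraries, as given below. They were chosen by name and Ensembl identifier, 4 of the 37620 genes listed, with their difference between spinal levels already known, so that difference is given below as values and is not tested. RNA came from 10 donors, 5 male and 5 female, at the lumbar (L4-5) and the sacral (L6-S1) level of each, which gave 20 libraries in 4 groups of 5. All mice were adults of 6-8 weeks and homozygous for the Trpv1tm2Bbm allele, a reporter that places an alkaline phosphatase and a nuclear beta-galactosidase under the control of the Trpv1 gene, and no library came from mice without it. The cells were the brightest 15% of those that turned the galactosidase substrate DDAOG into fluorescent DDAO. Each label names 2 animals per donor, and whether their ganglia were pooled is not stated. Donors are called M1 to M5 and F1 to F5 here, and the lumbar and sacral libraries of the same 2 animal numbers were taken as a pair. A level is given as log2 RPKM, in which a gene's reads are divided by its exon length and by the size of the library, so levels of genes of different length can be compared. Each library had 43906566 to 66407317 reads on genes.

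Malat1 lies in nuclear speckles, the bodies around which splicing factors gather, and Neat1 is the scaffold on which paraspeckles are built from the proteins Nono, Sfpq and Pspc1. Miat, also called Gomafu, forms its own nuclear domains in neurons and carries repeats of the branch point sequence that the splicing factors Sf1, Qk and Celf3 are known to bind. Snhg11 is a small nucleolar RNA (snoRNA) host gene expressed in neurons. The annotation used here lists Snhg11 as protein-coding, Miat as lincRNA, and Malat1 and Neat1 as processed transcripts. Where in the cell each RNA lay was not measured.

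On build NCBIM37 (mm9), Malat1 is a single exon of 6982 bases on the minus strand of chromosome 19 (chr19:5795690-5802671). Neat1 is a single annotated stretch of 20771 bases on the same strand (chr19:5824708-5845478), 22037 bases upstream of Malat1. Miat has 7 exon blocks and 8760 exon bases on the minus strand of chromosome 5 (chr5:112642248-112657968), and Snhg11 has 4 exon blocks and 8521 exon bases on the plus strand of chromosome 2 (chr2:158201374-158211881). Malat1 and Neat1 are known to share an unusual 3′ end: an A-rich tract that folds back into a triple helix takes the place of a poly(A) tail, and RNase P cuts just behind it to free a tRNA-like RNA. These ends are shown because they set Malat1 and Neat1 apart from the other members. The capitals mark the last 11 annotated bases of Neat1, AAAAAGCAAAA, which also occur at bases 6680 to 6690 of Malat1, and the tRNA-like stretch follows them. The Malat1 end is chr19:5795912-5796082 and the Neat1 end is chr19:5824638-5824808, both 171 bases of the minus strand, 5′ to 3′.
Malat1: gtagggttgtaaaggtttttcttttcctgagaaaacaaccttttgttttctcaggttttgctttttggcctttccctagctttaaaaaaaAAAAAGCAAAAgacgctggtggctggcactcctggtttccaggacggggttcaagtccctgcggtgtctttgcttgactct
Neat1: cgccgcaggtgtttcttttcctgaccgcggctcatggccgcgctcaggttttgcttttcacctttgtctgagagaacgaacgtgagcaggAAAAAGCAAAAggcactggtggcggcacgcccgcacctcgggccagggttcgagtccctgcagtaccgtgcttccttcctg
Over the 60 bases behind the tract, 41 of 61 aligned positions were identical between both genes, or 67.2%. The annotated Neat1 gene ends with the last base of the tract, whereas the annotated Malat1 gene runs on for 292 bases. The 11 letters of the tract, searched on the transcribed strand only, occurred in the exons of 168 of 16221 tested genes (1.04%). Snhg11 also held 1 copy. Among tested genes with 0.8 to 1.25 times the exon length, the share with a copy was 2.36% for Malat1, 7.14% for Neat1 and 2.90% for Snhg11.

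In Miat the feature of interest is the motif TACTAAC, shown in capitals in chr5:112645752-112645852, 101 bases of the minus strand within its last exon, because 3 of its 6 copies lie there.
Miat: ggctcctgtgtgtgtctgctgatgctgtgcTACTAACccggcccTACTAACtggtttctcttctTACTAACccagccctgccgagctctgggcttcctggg
With 6 copies, Miat had 0.685 copies per kilobase of exon. Of 1562 tested genes with 0.8 to 1.25 times its exon length, 18.4% held any copy on the transcribed strand, and Miat was the 1 gene among them with at least 6. Malat1 and Snhg11 held 0 copies and Neat1 held 1. A letter match is a description and not a binding site.

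The 4 RNAs differed widely in abundance. Malat1 took 0.464% to 1.16% of all reads on genes in lumbar libraries and 0.215% to 0.619% in sacral libraries, and its RPKM ranked between 15 and 75 among all genes in the 20 libraries. Snhg11 ranked 721 to 6424 and Miat 1938 to 10955. Neat1 ranked 8553 to 16642, with a median rank of 12248, and had between 252 and 3156 reads per library. Of the 4 RNAs, Malat1 alone ranked within the first 75 genes in any library, and no threshold for the word abundant was set. In each of the 20 libraries the order of the levels was Malat1, then Snhg11, Miat and Neat1. The closest neighbours in that order were Snhg11 and Miat, which differed by 1.50 ± 0.19 (SD over 20 libraries) on the log2 scale, more than the spread of their difference. Neat1 is known to have a short form that covers its 5′ end and a long form, and its reads are divided here by the length of both together, so its level per base of the short form is not given by these values.

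Between the spinal levels all 4 RNAs were higher in lumbar than in sacral libraries of the same donor, in 10 of 10 donors for each gene. The Malat1 level ran from 9.44 to 11.23 log2 RPKM in lumbar libraries (median 10.72) and from 8.17 to 9.85 in sacral libraries (median 9.25). The means were 10.51 ± 0.55 and 9.10 ± 0.63 (SD, n = 10 each), and the paired difference was 1.40 ± 0.52 on the log2 scale (n = 10 donors), or 2.65-fold. Donor M1 had the smallest Malat1 difference, 0.48, and F1 the largest, 2.23. The levels overlapped between groups: 4 sacral libraries lay above the lowest lumbar library, that of donor F2.

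Neat1 ran from -0.69 to 1.69 log2 RPKM in lumbar libraries (median 1.13) and from -2.28 to 0.95 in sacral libraries (median -0.16), with the largest SD of the 4 RNAs at each level. Its means were 0.91 ± 0.75 and -0.36 ± 1.01 (SD, n = 10 each), and its paired difference was 1.27 ± 0.72, or 2.40-fold, from 0.26 in M1 to 2.70 in M5. The lumbar and sacral values of Neat1 overlapped for 6 sacral libraries.

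Miat ran from 1.67 to 4.07 log2 RPKM in lumbar libraries (median 3.26) and from 0.71 to 2.98 in sacral libraries (median 1.56). Its means were 3.22 ± 0.65 and 1.72 ± 0.77 (SD, n = 10 each), and its paired difference was 1.50 ± 0.83, or 2.82-fold, from 0.12 in M1 to 2.67 in M2. For Snhg11 the lumbar levels ran from 3.05 to 5.42 (median 4.79) and the sacral levels from 2.36 to 4.45 (median 3.07). The Snhg11 means were 4.72 ± 0.70 and 3.20 ± 0.74 (SD, n = 10 each), and its paired difference was 1.52 ± 0.91, or 2.87-fold, from 0.09 in M1 to 2.82 in M2. For Miat and Snhg11, donor M1 therefore showed nearly the same level at both sites, while the other 9 donors differed by at least 0.81 for Miat and 0.65 for Snhg11. Donor F2 gave the lowest lumbar library for all 4 RNAs.

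**Figure D1:**
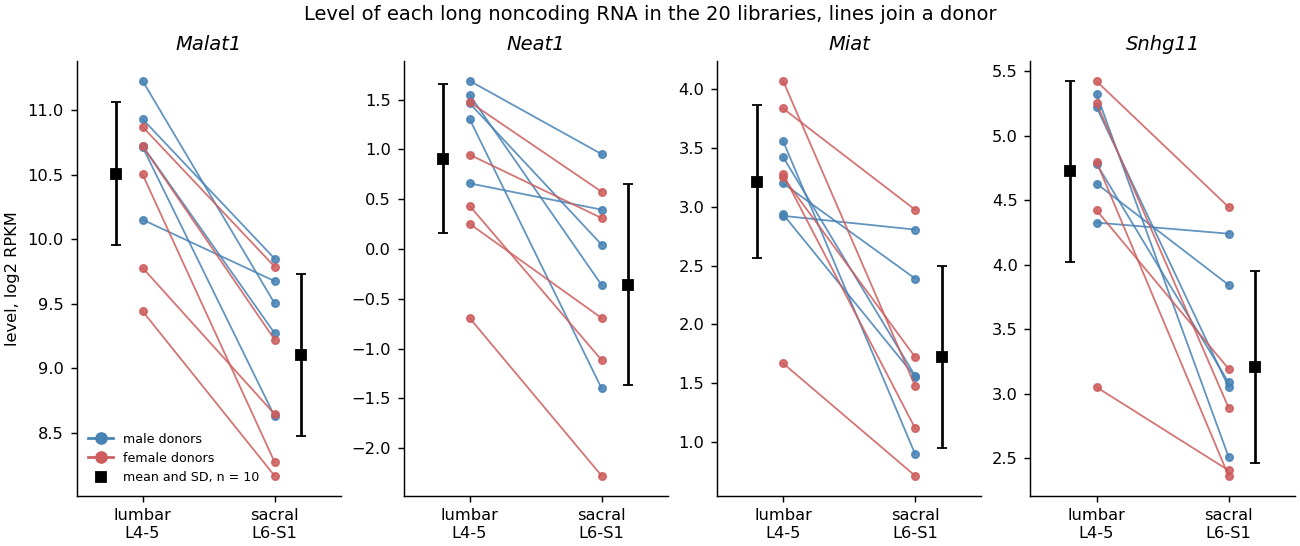
Level of Malat1, Neat1, Miat and Snhg11 in log2 RPKM (vertical axes, 1 panel per gene with its own scale) in lumbar and sacral libraries; each line joins the 2 libraries of a donor, and squares with bars give the mean and SD over 10 libraries. Each line falls from lumbar to sacral in all 4 panels, that of donor M1 least (0.48, 0.26, 0.12 and 0.09), and the lumbar and sacral values overlap.

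These differences stand against a table in which 45.6% of the 16304 genes tested differed between levels (limma, Benjamini-Hochberg adjusted p at most 0.05), with 15.3% higher in lumbar and 30.3% higher in sacral libraries and a median difference of -0.11 on the log2 scale. The split of those calls depended on how libraries were scaled: 2489 were higher in lumbar and 4947 in sacral libraries as deposited, 3440 and 3571 with TMM factors, 4673 and 2325 with scaling to reads outside the mitochondrial genome, and 1305 and 9615 with scaling to all reads. The median of all genes moved with it, from -0.11 to 0.00, 0.12 and -0.44 respectively. These scalings shift all genes of a library alike, so the distance of the 4 RNAs from that median is fixed by construction, at 1.51 for Malat1, 1.37 for Neat1, 1.60 for Miat and 1.63 for Snhg11. Quantile normalization, which does not, gave 1.20, 1.25, 1.65 and 1.74. In a bulk library, fewer cells of a type and less RNA per cell cannot be told apart.

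Other measures moved between the levels in the same donors. The share of reads on the mitochondrial genome was 37.2% to 60.4% in lumbar and 21.5% to 41.6% in sacral libraries, higher in lumbar in 10 of 10 donors by 21.8 ± 7.58 percentage points (SD), with the smallest differences in F2 (9.43) and M1. Markers of satellite glia and Schwann cells rose in lumbar libraries for 11 of 12 genes. The log2 of their summed RPKM was 11.07 to 12.06 in lumbar and 10.39 to 11.13 in sacral libraries, and their mean log2 RPKM differed by 0.94 ± 0.25 (SD), least in M1 (0.52) and most in M5 (1.37). Endothelial markers rose in lumbar libraries for 6 of 6 genes, fibroblast markers for 4 of 6, red cell markers for 4 of 5 and macrophage markers for 3 of 5 tested, whereas 10 of 12 markers of nociceptive neurons were upregulated in sacral libraries. The log2 of the summed RPKM was 3.21 to 6.05 in lumbar and 2.83 to 5.03 in sacral libraries for endothelial markers, 0.18 to 4.07 and -0.93 to 2.80 for red cell markers, and 2.96 to 5.39 and 1.81 to 3.28 for macrophage markers. For fibroblast markers the direction depended on the measure. Their mean log2 RPKM was higher in lumbar libraries in 10 of 10 donors, by 0.74 ± 0.45 (SD). The log2 of their summed RPKM was 6.17 to 8.34 and 6.29 to 7.48, with no common direction over donors (higher in lumbar in 4 of 10). Of these lists, 3 macrophage markers and 1 red cell marker had a library without a value. Summed nociceptor markers were at 11.27 to 11.85 in lumbar and 11.74 to 12.09 in sacral libraries on that scale. The lumbar library of M2 had 12.06 for glial and 11.61 for nociceptor markers, and that of F5 had 11.07 and 11.85. Which of both sums was higher therefore varied among lumbar libraries. No nociceptor or glial marker was without a value in any library, and Trpv1 had at least 1222 reads in each. With the mean of the 12 glial markers as a covariate in the model, the level difference was 0.09 for Malat1, -0.59 for Neat1, 0.70 for Miat and 0.65 for Snhg11. With the mitochondrial share as the covariate, which was chosen after seeing the data, it was -0.19, -0.59, -0.24 and -0.36. Both sets of estimates are given without a standard error, so their signs are not read as a direction. Both covariates follow the spinal level closely, and only 45 and 17 of 16304 genes then passed the limma threshold. Their part in the difference of the 4 RNAs was not tested.

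**Figure D2:**
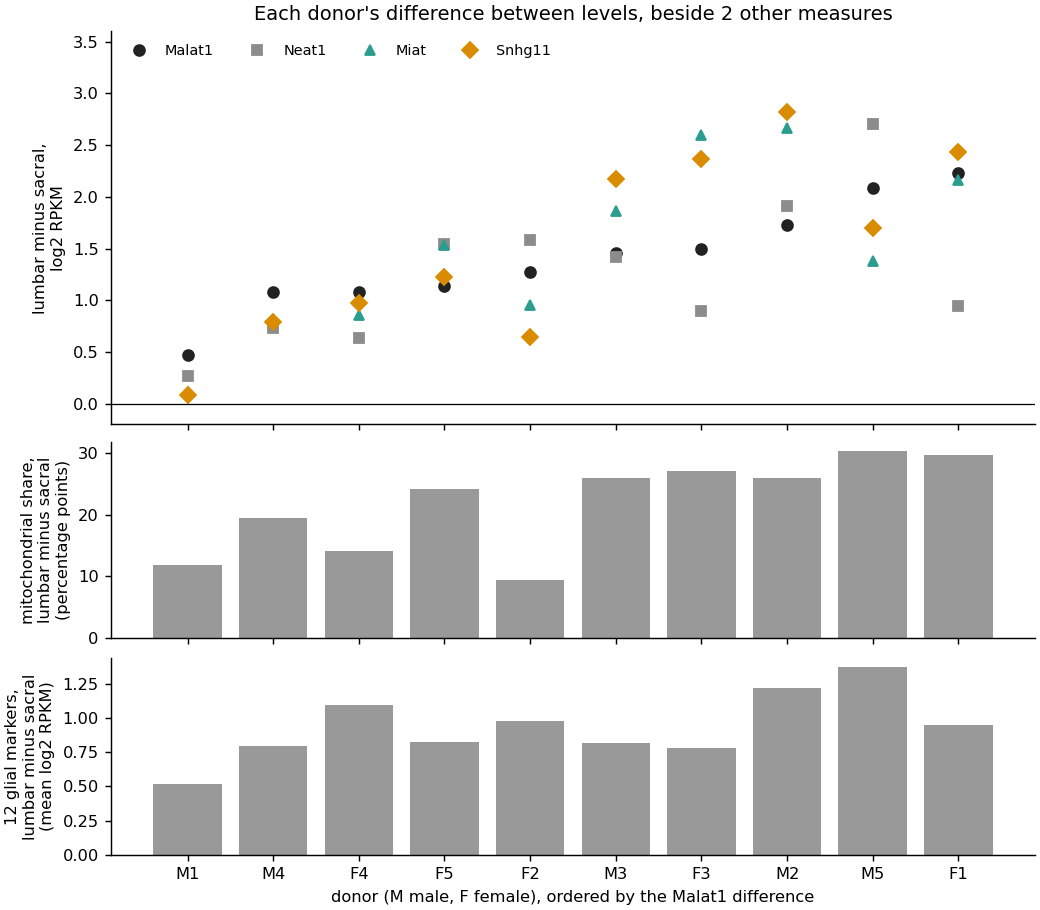
Lumbar minus sacral difference of each donor for the 4 RNAs in log2 RPKM (top), for the mitochondrial share of reads in percentage points (middle) and for the mean log2 RPKM of 12 glial markers (bottom), with donors ordered by their Malat1 difference. All points and bars are above 0, M1 has the smallest difference of all 4 RNAs and of the glial markers (0.52), and F2 the smallest of the mitochondrial share (9.43 points).

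The 4 RNAs were also compared with each other within each library, where the ratio of 2 genes is free of a library's scaling factor, though not of quantile normalization. Miat and Snhg11 kept nearly the same ratio throughout: Miat minus Snhg11 ranged from -1.85 to -1.17 on the log2 scale over the 20 libraries, and was -1.51 ± 0.24 in lumbar and -1.48 ± 0.12 in sacral libraries (SD, n = 10 each). Malat1 minus Neat1 spread more, from 8.65 to 10.44, and Neat1 minus Snhg11 had the widest spread (SD 0.66 over 20 libraries). None of the 6 ratios moved between levels by more than its spread over donors, the largest shift being -0.25 ± 0.90 for Neat1 minus Snhg11. Across the 20 libraries, after the mean of each group was subtracted, Pearson's r was 0.975 for Miat with Snhg11, 0.843 for Malat1 with Neat1, 0.806 for Malat1 with Snhg11, 0.771 for Malat1 with Miat, 0.724 for Neat1 with Miat and 0.669 for Neat1 with Snhg11. These are descriptions over libraries that share donors and scaling.

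**Figure D3:**
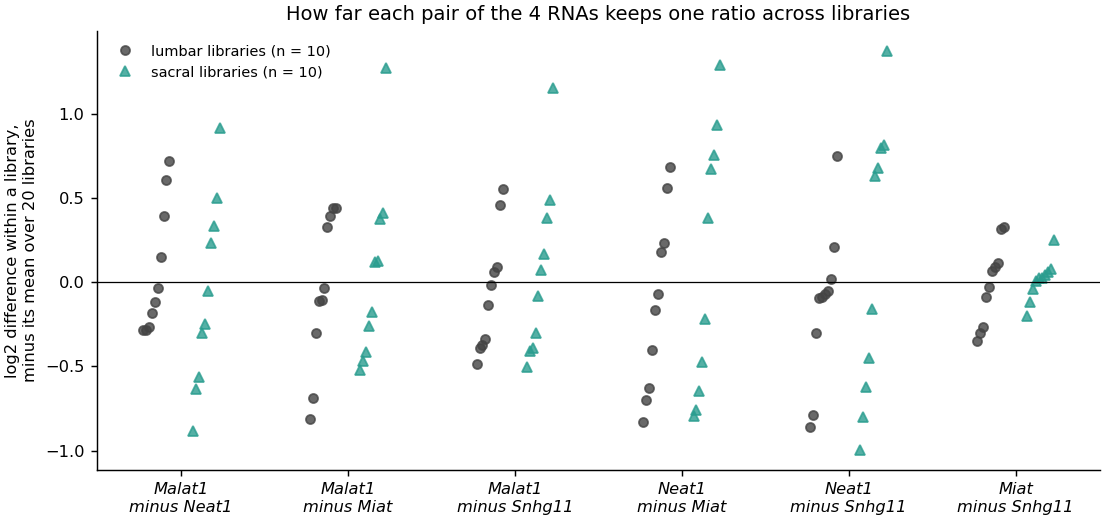
Log2 difference between each pair of the 4 RNAs within a library, minus its mean over 20 libraries (vertical axis), for 10 lumbar libraries (circles) and 10 sacral libraries (triangles), sorted by value within each set. The points of Miat minus Snhg11 lie closest to 0 (SD 0.19), and the lumbar and sacral points overlap for every pair.

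Sex was compared within each level and was not used to choose the RNAs. None of the 4 passed the test in either comparison (limma, adjusted over all genes), in which few genes did: 7 of 16386 in lumbar (0.0427%) and 6 of 16321 in sacral libraries (0.0368%). Malat1 was at 10.26 ± 0.62 log2 RPKM in female and 10.75 ± 0.39 in male lumbar libraries (SD, n = 5 each), a female minus male difference of -0.49 (SE 0.31, limma adjusted p = 0.544). In sacral libraries Malat1 was at 8.82 ± 0.68 and 9.39 ± 0.47 (SD, n = 5 each), a difference of -0.57 (SE 0.31, limma adjusted p = 0.646). The largest difference was that of Neat1 in lumbar libraries, at 0.48 ± 0.81 in females and 1.33 ± 0.40 in males (SD, n = 5 each), or -0.85 (SE 0.47, limma adjusted p = 0.494). The sacral Neat1 difference was -0.57 (SE 0.47, limma adjusted p = 0.777). Miat differed by 0.01 in lumbar and -0.24 in sacral libraries (SE 0.42, limma adjusted p = 0.994 and 0.908), and Snhg11 by -0.27 and -0.29 (SE 0.42, limma adjusted p = 0.828 and 0.891). Standard errors of 0.31 to 0.47 leave room for sex differences of the size seen here.

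The lumbar minus sacral difference was also set against sex. It was 1.36 ± 0.62 in male and 1.44 ± 0.47 in female donors for Malat1, 1.41 ± 0.96 and 1.12 ± 0.42 for Neat1, 1.37 ± 0.98 and 1.62 ± 0.75 for Miat, and 1.51 ± 1.09 and 1.53 ± 0.82 for Snhg11 (SD, n = 5 each). The interaction of sex and level was 0.08 (SE 0.39) for Malat1, -0.28 (SE 0.61) for Neat1, 0.25 (SE 0.53) for Miat and 0.02 (SE 0.54) for Snhg11, each with a limma adjusted p of 0.9996. By limma, 0 of 16304 genes passed for the interaction (0%), with 668 at an unadjusted p under 0.05 (4.1%). No sex dependence of the level difference was detected, and these errors leave room for one of the size seen here.

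Among other long noncoding RNAs a list of 40 was examined, of which 33 were in the table and 21 passed the filter on low values. In lumbar libraries 13 of the 21 were higher, in sacral libraries 2, and 6 did not pass (limma, against the 45.6% of all genes above). The median difference was 1.18, the value of Xist, which did not pass (limma adjusted p = 0.0576) and had a value in 18 libraries. The 21 were counted singly, Meg3 (1.46), Rian (0.64) and Mirg (1.77) among them, and need not vary independently. The list was chosen with earlier results of these data known. The largest lumbar differences were those of H19, an imprinted fetal RNA with 279 to 2362 reads in lumbar and 6 to 687 in sacral libraries, a difference of 2.86 (SE 0.65, limma adjusted p = 0.00124). Firre, an X-linked RNA that binds chromatin, differed by 2.08 (SE 0.51) and the Mir124a-1 host gene, which carries the neuronal miR-124, by 1.93 (SE 0.44). In the sacral direction Hotair, transcribed within the HoxC cluster, differed by -4.72 (SE 0.56, limma adjusted p = 5.48e-06), a size that rests on values near 0 and was -1.15 with a pseudocount of 1 RPKM. Hotair had 0 to 24 reads in lumbar and 78 to 433 in sacral libraries, and the fit used the 18 libraries with a value. Pvt1, the RNA next to Myc, was the other one upregulated in sacral libraries, by 0.62 (SE 0.20), but did not pass with scaling to reads outside the mitochondrial genome, at -0.39. More of the list was higher in lumbar than in sacral libraries under other scalings too, with 16 higher in lumbar against 2 in sacral libraries with TMM factors and 13 against 4 with scaling to all reads. Beyond the list, the annotated lincRNA genes showed 103 higher in lumbar and 88 in sacral libraries of 509 tested, with a median of 0.03, a split that was 128 and 55 with TMM factors, 158 and 25 outside the mitochondrial genome and 66 and 197 with scaling to all reads. As deposited, 1951 and 4504 of 13112 protein-coding genes were higher in lumbar and sacral libraries, with a median of -0.14.

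The genes whose levels followed those of each RNA most closely were looked up over the 20 libraries, after the group means were subtracted, among 15318 genes. For Snhg11 the closest was Meg3, an imprinted noncoding RNA of the Dlk1 region (r = 0.990), and for Miat the lincRNA 9530059O14Rik (r = 0.976) followed by Meg3 (r = 0.976) and Snhg11 (r = 0.975). Gm17639 and an SNORD113 copy came next for both, at r = 0.943 and 0.908 for Miat and 0.957 and 0.925 for Snhg11. Gm17639 lies opposite Meg3 and shares 1228 exon bases with it. The SNORD113 copy lies within Rian, another RNA of the list, on the same strand, and shares 74 exon bases with it. Before subtraction r was 0.994 for Meg3 with Snhg11 and 0.987 for 9530059O14Rik with Miat. Meg3 itself was at 5.22 ± 0.71 and 3.76 ± 0.79 log2 RPKM (SD, n = 10 each), a lumbar minus sacral difference of 1.46 (SE 0.28). For Malat1 the closest besides an overlapping gene were mt-Nd1 (r = 0.931), Sept2 (r = 0.930), mt-Co2 (r = 0.929) and mt-Rnr2 (r = 0.920), 3 of them transcripts of the mitochondrial genome. Neat1 was closest to Ccnd2 (r = 0.908), a cyclin of the G1 phase, Elk4 (r = 0.901), Tm4sf1 (r = 0.893), Atp10a (r = 0.883) and Flna (r = 0.871), an actin crosslinker. Malat1 ranked 18 among the genes most like Neat1, and Neat1 ranked 54 among those most like Malat1.

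All 30 genes of a list of paraspeckle proteins, among which Neat1 acts as scaffold, were tested. As deposited 6 were higher in lumbar and 9 in sacral libraries, or 50.0% against 45.6% of all genes, with a median of -0.15, near the -0.11 of all genes. The 3 core proteins were each upregulated in sacral libraries, Nono by 0.24 (SE 0.07), Sfpq by 0.33 (SE 0.09) and Pspc1 by 0.25 (SE 0.09), as deposited. None of the 3 passed with scaling to reads outside the mitochondrial genome, at -0.017, -0.11 and -0.029, or with quantile normalization, and of the 3 only Sfpq passed with TMM factors. Pspc1 also did not pass when any 1 of 6 donors was left out. Smarca4, a chromatin remodeller, at -0.45, Matr3, a nuclear matrix protein, at -0.42, and Hnrnpa1 at -0.40 had the largest sacral differences. Zfp24 at 0.77, the cold-inducible Rbm3 at 0.70 and Dazap1 at 0.70 had the largest lumbar ones. Tardbp, at 3.12 ± 0.12 and 3.19 ± 0.23 log2 RPKM (SD, n = 10 each), did not pass. The direction of these small differences depended on the scaling: with TMM factors 9 of the 30 were higher in lumbar and 4 in sacral libraries, outside the mitochondrial genome 11 and 2, and with scaling to all reads 3 and 22.

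Of the proteins of speckles and splicing, 37 of 37 were tested, with 5 higher in lumbar and 10 in sacral libraries (40.5% against 45.6% of all genes) and a median of -0.03. Srsf1 and Srsf2, splicing factors known to gather in speckles with Malat1, were at 3.44 ± 0.16 and 3.46 ± 0.17, and at 5.30 ± 0.19 and 5.32 ± 0.18 log2 RPKM (SD, n = 10 each), and neither passed. Of the factors known to bind the Miat repeats, Qk was higher in lumbar libraries by 1.01 (SE 0.13, limma adjusted p = 6.24e-06), at 5.82 ± 0.38 against 4.81 ± 0.44 log2 RPKM (SD, n = 10 each), in 10 of 10 donors. Qk is also a factor of glial cells. Celf3, a neuronal factor, was upregulated in sacral libraries by 0.49 (SE 0.11) and Sf1 did not pass, at -0.18 (SE 0.07). The splicing factors Rbfox2, Rbfox3 and Rbfox1 had the largest sacral differences, -0.60, -0.52 and -0.51. The kinase Clk1 at 0.62 and Celf2 at 0.27 followed Qk in the lumbar direction, although Celf2 turned to -0.053 with scaling to all reads. With TMM factors the counts were 10 in lumbar and 5 in sacral libraries, outside the mitochondrial genome 15 and 4, and with scaling to all reads 2 and 24.

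Of 14 genes that process the 3′ end of Malat1, all were tested and 2 passed (14.3% against 45.6% of all genes). Mettl16, a methyltransferase known to bind its triple helix, was upregulated in sacral libraries by 0.38 (SE 0.10; not passing outside the mitochondrial genome, at -0.15), and Rpp38, a subunit of RNase P, in lumbar libraries by 0.89 (SE 0.23). Elac2, the enzyme that trims the tRNA-like RNA, was at 1.15 ± 0.26 and 1.46 ± 0.34 log2 RPKM (SD, n = 10 each) and did not pass. The median of the list was -0.14, and with scaling to all reads 1 gene was higher in lumbar and 11 in sacral libraries. Of 19 snoRNA host genes, relatives of Snhg11 by their content, 11 were tested and 3 passed (27.3% against 45.6% of all genes). Gas5 (0.52) and the Snord123 host Snhg18 (0.97) were higher in lumbar and Snhg4 (-0.45) in sacral libraries, with a median of 0.21. Snhg4 did not pass with TMM factors (-0.34), quantile normalization (-0.35) or scaling outside the mitochondrial genome (-0.23), and Gas5 did not pass with scaling to all reads (0.19). The exons of H19, Gas5, Sfpq, Tardbp, Rbm3, Dazap1, Srsf1, Srsf2, Sf1, Celf2, Elac2 and the Mir124a-1 host share 31 to 1817 bases with another annotated gene, and how reads there were assigned is uncertain.

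**Figure D4:**
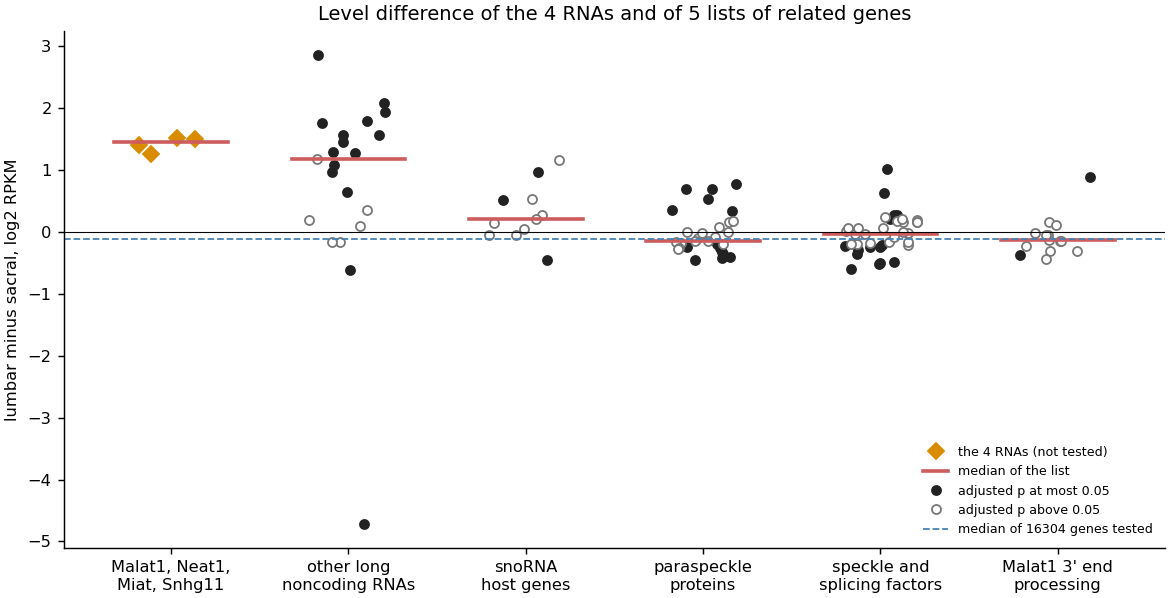
Lumbar minus sacral difference in log2 RPKM (vertical axis) for the 4 RNAs (diamonds) and the tested genes of 5 lists (circles, filled at a limma adjusted p of at most 0.05), with the median of each list (bar) and of 16304 genes (dashed line, -0.11). The other long noncoding RNAs have a median of 1.18, whereas the medians of the 3 protein lists lie between -0.15 and -0.03.

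Around the 4 genes, 24 other genes within 100 kb were tested, of which 6 were higher in lumbar and 4 in sacral libraries, with a median of -0.03. Without the 2 that share exon bases with Malat1 or Snhg11, 4 and 4 of 22 passed, or 36.4% against 45.6% of all genes. Within 100 kb of Malat1, Frmd8, which lies 4224 bases from Neat1, was higher in lumbar libraries by 0.47 (SE 0.15) and Map3k11 by 0.41 (SE 0.13), and neither passed with scaling to all reads, at 0.14 and 0.083. Fam89b and Sssca1 were upregulated in sacral libraries by 0.31 and 0.27, and neither passed outside the mitochondrial genome, at -0.083 and -0.043. Ltbp3, Ehbp1l1, Dpf2, Slc25a45, Gm16538 and Gm9783 did not pass, at -0.05, -0.24, -0.11, -0.06, -0.28 and 0.08. Near Neat1 Cdc42ep2 was higher in lumbar libraries by 0.26 (SE 0.09; -0.066 with scaling to all reads) and Pola2 did not pass, at -0.41 (SE 0.19). Of the 3 genes tested near Miat, Crybb1, Tpst2 and Tfip11, none passed, at 0.94, 0.07 and -0.20. Near Snhg11 Lbp, which encodes a protein that binds bacterial lipopolysaccharide, was higher in lumbar libraries by 1.15 (SE 0.32) and Ralgapb in sacral libraries by 0.40 (SE 0.10). Of the 2 SNORA71 copies inside Snhg11, the one that shares 133 exon bases with it was higher in lumbar libraries by 0.92 (SE 0.26), and reads there cannot be divided between both, while the copy in an intron did not pass, at -0.02 (SE 0.72).

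**Figure D5:**
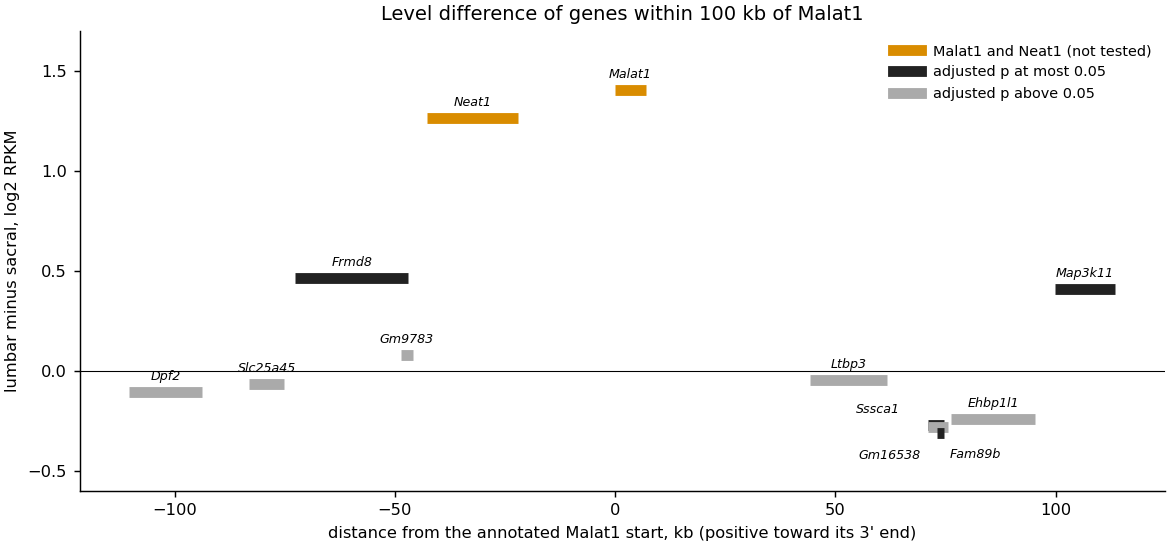
Lumbar minus sacral difference in log2 RPKM (vertical axis) of Malat1, Neat1 and tested genes within 100 kb that are named in the text, drawn to scale by distance from the annotated Malat1 start in kb (horizontal axis). Malat1 and Neat1 lie above 1.2, and the other genes drawn, which leave out Gm20417 inside Malat1, lie between -0.31 and 0.47.

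One annotated neighbour is not an independent measure. Gm20417 (chr19:5797562-5798549, plus strand) lies opposite Malat1, and all 425 of its exon bases fall inside the Malat1 exon, of which they make up 6.09%. Its reads were 5.19% to 6.30% of those of Malat1 in each of the 20 libraries, so its level per length stayed within -0.23 and 0.05 of Malat1 on the log2 scale. Its correlation with Malat1 was 0.992, and its lumbar minus sacral difference was 1.42, against 1.40 for Malat1. The amplified cDNA did not mark strand, so reads of both genes cannot be told apart there.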

How the data were processed

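RNA sequencing of cells sorted for the Trpv1 reporter, in 20 libraries, was used as 1 table of log2 RPKM values. According to the methods of the authors, reads were aligned to mm9 with Subread and counted per Ensembl gene with featureCounts, and the deposited log2 RPKM values were made with limma and edgeR after TMM scaling. The submitters' processing notes give Subread 1.18 and 1.20.6, limma 3.26.9, edgeR 3.12.1 and R 3.2.1 and 3.2.2. The median of the 20 library medians was 0.93 log2 RPKM as deposited. Reads were worked back from these values and the exon lengths of GENCODE vM1 on NCBIM37 (mm9), an annotation older than that of the authors, which matched 37205 of 37620 identifiers. Of 430293 values, 98.1% were whole within 0.01 read, and 493 genes were not whole.

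Genes with a mean above -1 log2 RPKM in at least 1 group with at least 3 values were kept (16422). R 4.3.3 with statmod 1.5.0 and limma 3.58.1 was used to fit the values, with 4 groups of sex and level, a mean-variance trend and the donor as a block (correlation 0.173), and p-values were adjusted by Benjamini-Hochberg over all genes, with a threshold of 0.05. The lumbar and sacral libraries carry the same animal numbers. Their deviations from the group means correlated at 0.176 on average (lowest 0.039), against -0.044 for other donors of the same sex. Since it is not stated whether ganglia were pooled, p-values measure the spread between these donors. Tables and figures were made with matplotlib 3.10.9, numpy 2.4.6 and pandas 2.3.3 under Python 3.11.15. Sequences were read from NCBIM37.

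Tested on simulated data, the level comparison found 84.0% of 200 planted genes with a log2 size of 1 among 15318, with 4.9% false calls. The 4 RNAs and all gene lists were chosen with earlier results of these data known. Named genes are the 3 largest passing differences per list and direction and a few proteins fixed by their known role. Meg3 was named as a gene most like the members. Alternatives changed the scaling, pseudocount, filter, trend, weights, block, covariates and donors. Some genes that these rules name are not reported here.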

Additional observations from a re-analysis of the deposited data

How the results depend on the processing

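The lumbar minus sacral difference of all 4 RNAs kept its direction under every alternative without a covariate. Much of this was fixed beforehand and is no support for the difference. All 10 donors were higher in lumbar libraries, so leaving out donors could not turn the direction. Changes of block, filter and trend leave the estimate as it was. Leaving out 1 donor gave 1.31 to 1.52 for Malat1, 1.10 to 1.41 for Neat1, 1.33 to 1.65 for Miat and 1.36 to 1.70 for Snhg11. With a pseudocount of 1 RPKM the difference of Neat1, a low gene, was 0.66. The number of donors (10) and the closeness of both covariates to the spinal level limit what these data can separate, and Neat1, with 252 reads in its lowest library, has the largest limma standard error of the 4 (0.30). Where a value moved and its construction does not show why, the cause was not tested.

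The pairing of libraries by donor changed little. With no replicate block 6577 genes differed between levels (2154 higher in lumbar and 4423 in sacral libraries), against 7436, and the donor as a fixed block gave 7151 and raised the snoRNA host genes that passed from 3 to 5. With no replicate block Pspc1 no longer passed, at -0.25 (limma adjusted p = 0.0562), and the other lists had 15, 3, 12, 12 and 2 genes passing, with 165 lincRNA genes.

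With the glial marker mean as a covariate, the level difference was 0.091 for Malat1 and -0.59 for Neat1, 45 genes passed between levels, 0 genes passed in each of the 5 lists and among lincRNA genes, and 3 passed between sexes in lumbar libraries. The sex difference then became 0.032 for Malat1 and 0.076 for Snhg11 in lumbar libraries, and 0.13 for Neat1, 0.058 for Miat and 0.039 for Snhg11 in sacral libraries. Gas5 turned to -0.43, Srsf1 to 0.051, Qk to -0.033, Celf3 to 0.26, Celf2 to -0.083, Rbfox1 to 0.061, Rbfox2 to 0.0104, Rbfox3 to 0.012, Mettl16 to 0.011, Frmd8 to -0.078, Sssca1 to 0.046, Cdc42ep2 to -0.037 and Ralgapb to 0.019. With the mitochondrial share of reads as a covariate, which was chosen after seeing the data, the level difference was -0.19 for Malat1, -0.59 for Neat1, -0.24 for Miat and -0.36 for Snhg11, the lumbar sex difference of Snhg11 was 0.13, 17 genes passed between levels, and 0 passed in the lists and among lincRNA genes. Mir124a-1hg turned to -0.53, Meg3 to -0.50, Gas5 to -0.55, Smarca4 to 0.15, Dazap1 to -0.027, Clk1 to -0.038, Sf1 to 0.047, Celf3 to 0.13, Rbfox1 to 0.039, Rbfox2 to 0.0203, Rbfox3 to 0.19, Mettl16 to 0.14, Fam89b to 0.032, Sssca1 to 0.12 and Ralgapb to 0.13.

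Scaling moved small differences. Calls of Nono were lost with quantile normalization, TMM factors, voom and scaling outside the mitochondrial genome (adjusted p up to 0.824), as were those of Pspc1, Snhg4 and Sssca1. Those of Fam89b were lost with the same settings apart from TMM factors, those of Hnrnpa1 with the same apart from quantile normalization, those of Sfpq with quantile normalization and scaling outside the mitochondrial genome, and those of Pvt1, Mettl16 and Ralgapb with the latter alone of these. Scaling to total reads gave 25 paraspeckle, 26 speckle and 12 Malat1 3′ processing genes passing, and turned Celf2 to -0.053 and Cdc42ep2 to -0.066. Scaling to reads outside the mitochondrial genome gave 5 snoRNA host genes and turned Tardbp to 0.15, Srsf1 to 0.21, Srsf2 to 0.20, Sf1 to 0.044 and the lumbar sex difference of Miat to -0.018. Quantile normalization, with 3063 genes higher in lumbar and 3432 in sacral libraries, turned that sex difference to -0.00480, Tardbp to 0.10, Srsf1 to 0.17 and Srsf2 to 0.19. TMM factors turned Tardbp to 0.0331, Srsf1 to 0.0978 and Srsf2 to 0.0831, and voom on worked-back reads gave 0.0322, 0.0974 and 0.0822, with 3484 and 3538 genes higher in lumbar and sacral libraries and 36 sex differences in sacral libraries. Array quality weights turned the lumbar sex difference of Miat to -0.028 and gave 5 snoRNA host genes, 4 3′ processing genes and 27 sex differences in sacral libraries. No mean-variance trend gave 4 3′ processing genes and 4 sex differences in lumbar libraries. A filter at a mean log2 RPKM above 1 tested fewer genes and left 8 other long noncoding RNAs and 121 lincRNA genes passing. A pseudocount of 1 RPKM gave 12 sex differences in lumbar and 27 in sacral libraries, a pseudocount of 0.1 RPKM gave 13 in sacral libraries, and separate fits gave 3 in lumbar and 18 in sacral libraries. Male donors alone gave 4644 genes between levels, 1 snoRNA host, 8 paraspeckle, 7 speckle, 0 3′ processing and 112 lincRNA genes, with Srsf2 at 0.068. Female donors alone gave 3671 genes, 8 paraspeckle, 4 speckle, 1 3′ processing and 81 lincRNA genes, with Tardbp at 0.0092 and Srsf1 at 0.029.

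When 1 donor was left out, the lumbar sex difference ranged from -0.64 to -0.28 for Malat1, -1.10 to -0.56 for Neat1, -0.20 to 0.40 for Miat and -0.48 to 0.12 for Snhg11 (above 0 without F2 alone). In sacral libraries it ranged from -0.81 to -0.40, -0.90 to -0.16, -0.59 to -0.00020 and -0.63 to -0.063. The interaction ranged from -0.14 to 0.26 for Malat1, -0.57 to 0.041 for Neat1, -0.059 to 0.58 for Miat and -0.34 to 0.35 for Snhg11. Genes passing ranged from 6623 to 7475 between levels, 3 to 9 between sexes in lumbar and 3 to 9 in sacral libraries. The lists ranged from 15 to 16 other long noncoding RNAs, 2 to 5 snoRNA hosts (5 without F2), 11 to 15 paraspeckle, 9 to 16 speckle (9 without F5), 2 to 4 3′ processing (4 without M1) and 165 to 196 lincRNA genes. Srsf1 ranged from -0.062 to 0.034 and Srsf2 from -0.064 to 0.0102. Calls of Pspc1 were lost without F2, F3, F4, M1, M4 or M5, at adjusted p up to 0.0847, those of Celf2 without F1, F2, F3, F4 or M2, up to 0.101, those of Snhg4 without F5, M2 or M4, up to 0.109, those of Frmd8 without F1, F4 or M2, those of Sssca1 without M2 or M4, and those of Cdc42ep2 without F1, F4 or M4, up to 0.0709. Sf1 passed without F2, F4, M1 or M2 and Elac2 without F3, F4 or M1 (limma).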

Other observations

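Annotated snoRNA genes leaned to lumbar libraries as deposited, with 88 of 295 tested higher in lumbar (29.8% against 15.3% of all genes). In sacral libraries 2 were higher (0.678% against 30.3%), and the median difference was 0.88 on the log2 scale (limma, adjusted p at most 0.05). Several snoRNA entries share exon bases with their host genes, so their reads are not independent of those hosts. Reads can also be few: the SNORA71 copy sharing 133 exon bases with Snhg11 had 0 to 38 per library. The snoRNA count was not repeated under other scalings. The annotated processed transcripts, among them Malat1 and Neat1, had 119 higher in lumbar and 108 in sacral libraries of 595 tested, with a median of 0.02. Of 8 immediate early genes, 1 was higher in lumbar and 1 in sacral libraries (25.0% against 45.6% of all genes).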
